A study of Mus musculus with 8 samples.

Results

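The libraries described here are the 4, of 8 in the series, that were made without RANKL: 2 cultures of mouse bone marrow-derived macrophages treated with recombinant PRDX1 and 2 control cultures without it. They were chosen by their treatment labels, and the genes compared are the 11700, of 25124 in the deposited table, with a mean of at least 0.5 FPKM (fragments per kilobase of transcript, scaled to the reads of the library) over the 8 libraries. Marrow was flushed from the femurs and tibias of mice aged 6 to 8 weeks, kept for 16 h in 5 ng/mL M-CSF, the growth factor macrophages depend on, and the cells that had not attached were then grown for 3 days in 30 ng/mL M-CSF. The adherent cells were treated for 48 h. The control group (no PRDX1 + no RANKL) received M-CSF only, the treated group (PRDX1 + no RANKL) M-CSF with 200 nM PRDX1, and the other 4 libraries carried 100 ng/mL RANKL without or with the same dose of PRDX1. The labels give the strain of all 8 cultures as C57BL/6, whereas the culture methods of the study name male ICR mice. The protein carried a histidine tag, was made in *Escherichia coli* and was passed over an endotoxin removal resin. None of the 8 libraries is labelled as having received a mutant, a heat-treated protein or another bacterially made protein, so effects of the protein and of anything purified with it cannot be told apart here. No label says that the 2 cultures of a group came from different mice, so the p-values measure the spread between these cultures.

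PRDX1 is a thiol peroxidase that removes hydrogen peroxide inside cells, and after release it can act on neighbouring cells through Toll-like receptor 4 (TLR4). In macrophages TLR4 signals by 2 routes, one through MyD88 to NF-κB and the cytokine genes, the other through TRIF to IRF3 and type I interferon, whose receptor then switches on the interferon-stimulated genes. Macrophages are also the precursors of osteoclasts, the bone-resorbing cells that form when RANKL is added, so the cultures without RANKL address its effect on the precursor.

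The reads recovered on genes numbered 26959561 and 38248217 in the control libraries and 28647801 and 32370994 in the PRDX1 libraries, and the median SD of log2(FPKM + 1) between 2 libraries of a group was 0.0554 for the controls and 0.05001 with PRDX1. The cells carried macrophage markers in every library. Csf1r, the M-CSF receptor, had 503 and 514 FPKM in the control libraries and 481 and 501 FPKM with PRDX1, and Lyz2, lysozyme, had 14982 and 13253 FPKM in the control libraries and 13856 and 14239.9 FPKM with PRDX1. Of 12 macrophage markers 1 rose, Cebpa, and 0 fell. Markers of B cells, T and NK cells and mast cells were near 0. The 8 B cell genes summed to between 0.748 and 2.29 FPKM per library and the 8 mast cell genes to between 0.168 and 0.272 FPKM. The 10 erythroid and megakaryocyte genes summed to between 592 and 812 FPKM, nearly all of it Pf4, a chemokine that macrophages also make, and 4 of them were at 0 in all 4 libraries. Some markers of neutrophils, stromal cells and dendritic cells, all low, moved with PRDX1. The 12 neutrophil genes summed to 26.8 and 21.3 FPKM in the control libraries and 59.4 and 54.8 FPKM with PRDX1, and 5 of the 8 tested rose (S100a8, S100a9, Elane, Mpo and Csf3r), while the defining genes Ly6g, Camp and Ltf stayed under 0.33 FPKM. The 11 stromal genes summed to 17.1 and 21.2 FPKM and then to 34.1 and 34.4 FPKM, and 4 of the 6 tested rose (Col1a1, Col1a2, Sparc and Bgn), while Lum and Lepr stayed under 0.02 FPKM. Without replicate 1 of the control group 2 of the stromal genes passed. The 9 dendritic cell genes summed to 4.93 and 4.09 FPKM in the control libraries and 5.43 and 6.23 FPKM with PRDX1, and 2 of the 4 tested rose (Ccr7 and Siglech), of which Siglech lost its call without replicate 1 of the PRDX1 group. Their part in the results below was not tested, and in bulk RNA a change in the number of such cells and a change in RNA per cell cannot be told apart.

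PRDX1 changed macrophage gene expression in both directions, with larger increases than decreases. By limma with Benjamini-Hochberg adjustment, 445 genes (3.80% of the genes tested) were higher and 233 (1.99%) lower, together 5.79%, at an adjusted p under 0.05 with a change of 1.5-fold or more, on the scale of log2(FPKM + 1), which understates the change of weakly expressed genes. The increase was at least 2-fold for 149 genes and at least 4-fold for 23, and the decrease was at least 2-fold for 38 and at least 4-fold for 4. The genes that rose had a median of 5.08 FPKM in the controls, against 10.9 FPKM for all genes tested and 15.2 FPKM for the genes that fell, and 87 of the 445 had a control mean under 1 FPKM. In all 678 of these genes the 2 PRDX1 libraries lay beyond both controls. Separation of that kind was common by itself: both PRDX1 libraries lay above both controls for 26.1% of all genes tested and below them for 39.7%. Without the fold threshold the balance turned, with 1425 genes higher and 2059 lower, and the median log2 fold change of all genes was -0.04. FPKM is scaled to the library total, and the top 10 genes took 9.69% and 9.61% of reads with PRDX1. In the control libraries the top 10 took 8.30% and 8.07%. With upper quartile scaling and the fold threshold kept, 488 genes were higher and 194 lower. The part of such scaling in the small decreases was not tested.

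**Figure D1:**
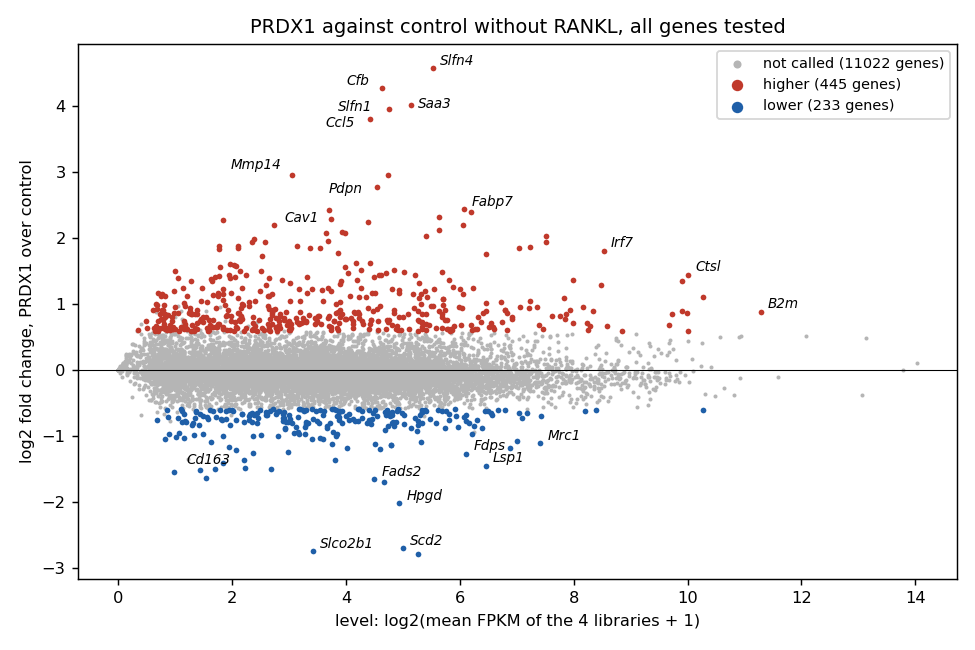
Each point is 1 of 11700 genes, with its level on the x axis as log2(mean FPKM of the 4 libraries + 1) and its log2 fold change, PRDX1 over control, on the y axis. The 445 genes called higher (red) reach 4.57 for Slfn4, while the 233 called lower (blue) end near -2.79, and the red points extend to abundant genes such as Ctsl and B2m.

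The largest increase was that of Slfn4, a member of the Schlafen family, interferon-inducible genes that restrain growth and differentiation of myeloid cells. Slfn4 (NM_001302559) lies on chr11:83175186-83190216 (mm10, plus strand) and had 2.19 and 3.25 FPKM in the control libraries and 96.3 and 78.04 FPKM with PRDX1, from 251 and 525 reads and 11676 and 10661 reads, so its mean with PRDX1 was 32.1 times the control mean. On the log2(FPKM + 1) scale the change was 4.57 (SE 0.14, adjusted p = 2.6e-08, limma). Its neighbour Slfn1, on chr11:83116820-83122670 (mm10, plus strand), had 1.70 and 2.93 FPKM in the control libraries and 51.8 and 47.5 FPKM with PRDX1, a log2 fold change of 3.96 (SE 0.16, adjusted p = 1.91e-07). The PRDX1 and control libraries of both genes were far apart, and the difference between the controls was small beside that gap. Of the 8 Schlafen genes tested 5 rose and 0 fell, with a median log2 fold change of 0.62. Across all genes tested 3.80% rose and 1.99% fell, the shares against which this and later counts of list members stand. Slfn5 rose from 40.8 and 43.2 to 63.6 and 67.03 FPKM, Slfn8 from 21.7 and 22.6 to 34.7 and 34.3 FPKM and the pseudogene Slfn10-ps from 5.53 and 4.55 to 9.58 and 8.35 FPKM, whereas Slfn2, the most abundant member, had a change of 0.51 that stayed under the threshold. Schlafen genes resemble one another and could share reads, which the counting used by the authors does not resolve.

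Among the other genes at the top of the list, Cfb, the complement factor of the alternative pathway, Saa3, an acute phase apolipoprotein, and Ccl5, a chemokine that draws T cells and monocytes, changed by 4.27, 4.02 and 3.80. Mmp14, the membrane-bound collagenase, had 1.02 and 0.771 FPKM in the control libraries and 13.1 and 14.3 FPKM with PRDX1, a change of 2.96 (SE 0.08, adjusted p = 1.99e-08). Plac8, a small cysteine-rich protein of myeloid cells, rose from 3.78 and 6.77 to 45.1 and 47.5 FPKM. Pdpn, podoplanin, a membrane mucin that binds the platelet receptor CLEC-2, rose from 5.02 and 4.89 to 41.2 and 38.1 FPKM, so that its mean with PRDX1 was 8.01 times the control mean. Cav1, caveolin-1, the coat protein of caveolae, rose from 3.59 and 3.46 to 20.2 and 22.2 FPKM. Npy, neuropeptide Y, a peptide best known from neurons, rose from 23.2 and 21.5 to 129 and 113 FPKM, and Marco, a scavenger receptor for bacteria, from 6.43 and 6.19 to 32.5 and 34.5 FPKM. In each of these genes both PRDX1 libraries lay well above both controls, and lack of overlap was part of the rule that chose them.

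**Figure D2:**
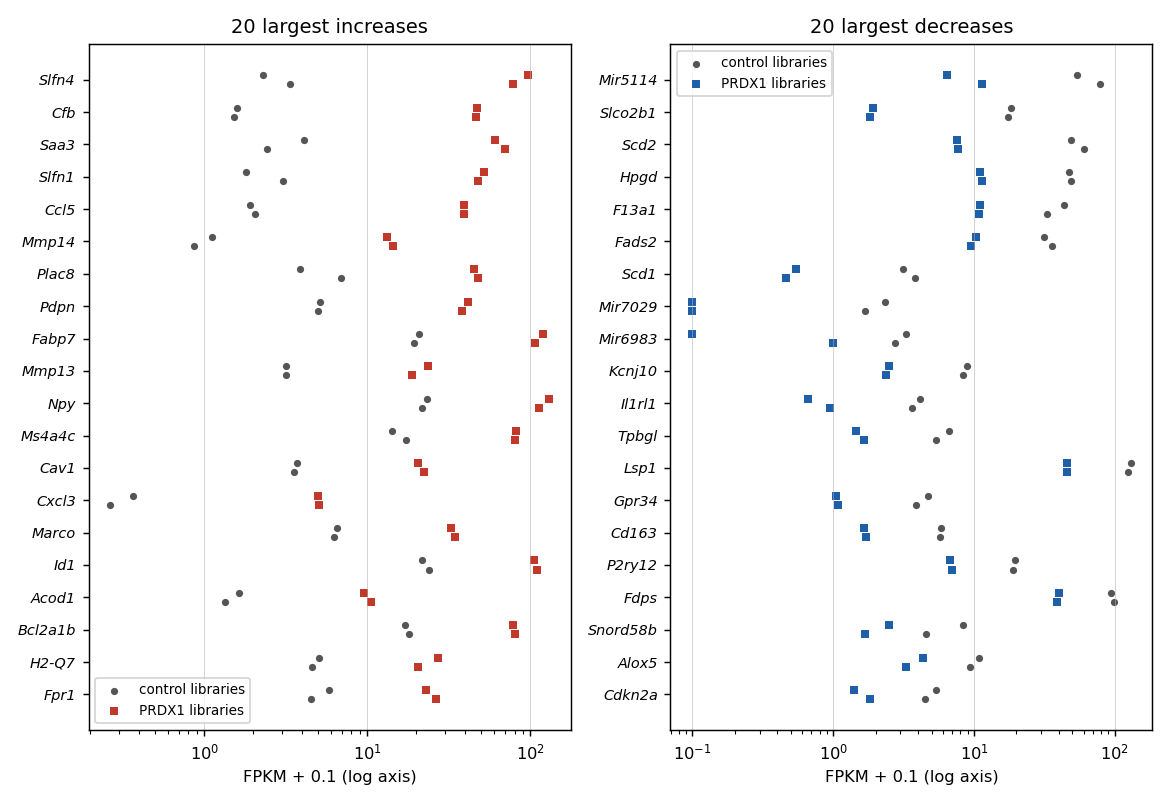
FPKM + 0.1 on a log axis in each of the 2 control libraries (grey circles) and 2 PRDX1 libraries (coloured squares) for the 20 genes with the largest increases and the 20 with the largest decreases. Genes were chosen so that both PRDX1 libraries lay beyond both controls, so the squares lie right of the circles in the left panel and left of them in the right panel. The libraries of a group lie apart for the small RNA genes Mir6983 and Snord58b.

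Of 53 interferon-stimulated antiviral genes tested 23 rose and 0 fell, 51 had a change above 0, and the median was 0.53. Irf7, from the list of interferon regulatory factors, which amplifies type I interferon, had 156 and 170.1 FPKM in the control libraries and 570.3 and 576 FPKM with PRDX1, a change of 1.81 (SE 0.06, adjusted p = 2.63e-08). Ifi205, a DNA-binding protein of the p200 family, rose from 0.863 and 1.37 to 6.92 and 7.73 FPKM. The translation inhibitors Ifit1 (1.17), Ifit2 (1.16) and Ifit3 (1.24) changed by similar amounts, as did the oligoadenylate synthetase-like gene Oasl1 (1.32). Isg15, the ubiquitin-like modifier, rose from 54.3 and 67.5 to 113 and 113 FPKM, and Usp18, the protease that removes it, from 22.2 and 25.8 to 48.03 and 45.8 FPKM. Bst2, which tethers budding virus, rose from 175 and 209 to 318 and 309 FPKM. Ifitm3, the most abundant member, had 694 and 692 FPKM in the control libraries and 940.0 and 968 FPKM with PRDX1, a change of 0.46 that stayed under the threshold, as did the RNA sensors Ddx58 (0.51) and Ifih1 (0.56). Of the 8 sensors in the list 1 rose, Zbp1 (0.97), against 22 of 45 effectors. With voom on recovered reads the counts were 2 and 22. The difference between sensors and effectors was not tested.

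Of 16 guanylate-binding and immunity-related GTPases, which attack vacuoles that hold pathogens, 8 rose and 0 fell, all 16 with a change above 0 and a median of 0.56. Gbp6 rose from 0.392 and 0.506 to 2.02 and 2.27 FPKM, Gbp9 from 7.29 and 7.57 to 13.6 and 12.3 FPKM and Tgtp1 from 1.11 and 1.59 to 2.65 and 2.90 FPKM. Of 8 IRF genes Irf7 alone passed, and of 7 STAT genes Stat2 (0.62). The feedback inhibitors Socs1 (0.64) and Socs3 (0.85) also rose, making 4 of 21 genes of this list, of which 2 remained without replicate 1 of the control group, Stat2 and Socs1 being the ones lost.

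Among MHC class I genes most of those of the presenting molecules rose. Of 10 class I heavy and light chain genes 8 rose and 0 fell, with a median of 0.93, while of 13 genes of peptide supply and loading 1 rose, the peptide transporter Tap1 (0.73), and the median was -0.05. The difference between these groups of genes was not tested. B2m, the light chain shared by all class I molecules, had 1805 and 1713 FPKM in the control libraries and 3250.1 and 3222 FPKM with PRDX1, a change of 0.88 (SE 0.04, adjusted p = 3.81e-07). H2-K1 rose from 140.5 and 146 to 302 and 314 FPKM and H2-D1 from 661 and 676 to 1215 and 1269 FPKM, and the non-classical gene H2-Q7 from 4.97 and 4.48 to 27.2 and 20.2 FPKM. Both PRDX1 libraries lay above both controls in each of these, as in all genes called higher. By contrast the immunoproteasome gene Psmb8 had 133 and 134 FPKM in the control libraries and 156 and 159.8 FPKM with PRDX1 and the activator Psme1 141 and 143 FPKM in the control libraries and 141 and 132 FPKM with PRDX1, with changes of 0.24 and -0.06. Class I genes are near copies of one another, so the split of reads between them, above all among the H2-Q genes, is uncertain. Of 9 class II presentation genes 2 rose, H2-Ab1 (0.70) and the invariant chain Cd74 (0.63). Cd274, which encodes the checkpoint ligand PD-L1, rose from 3.45 and 3.46 to 14.8 and 15.3 FPKM.

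The promoters of these genes were searched for the motif that interferon-activated factors bind. RefSeq promoters of build GRCm38.p6, each 250 bases before to 50 after the start, were at hand for 9159 of the 11700 genes tested, among them 322 of the 445 that rose and 179 of the 233 that fell. The interferon-stimulated response element was sought as GAAA, any 2 bases and GAAA again, on both strands. It stood in 13.98% of the promoters of genes that rose, 3.35% of those of genes that fell and 4.05% of those of all genes tested (3.99% of all 27025 promoters). Among the interferon-stimulated antiviral genes it stood in 20 of 41 promoters, and among the GTPases in 9 of 10. The 3 promoters below, the 250 bases before the RefSeq start, show how it lies in an antiviral gene, in Isg15 and in Saa3. The nearest GENCODE transcript start is at -18 from that start in Ifit1 and -24 in Saa3, so these windows end after it. Capitals mark each match to this element, and the 3 matches of Isg15 overlap so that they form a single run. Saa3 is shown as an exception in its list: of 12 promoters of acute phase and granule genes 1, that of Saa3, held the element.
Ifit1 (chr19:34640639-34640888, plus strand): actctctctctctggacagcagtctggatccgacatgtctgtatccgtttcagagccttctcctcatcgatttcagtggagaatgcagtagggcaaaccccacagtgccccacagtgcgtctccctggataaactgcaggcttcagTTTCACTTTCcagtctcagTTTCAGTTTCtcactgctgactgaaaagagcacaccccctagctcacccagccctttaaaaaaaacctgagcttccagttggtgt
Isg15 (chr4:156200819-156201068, minus strand): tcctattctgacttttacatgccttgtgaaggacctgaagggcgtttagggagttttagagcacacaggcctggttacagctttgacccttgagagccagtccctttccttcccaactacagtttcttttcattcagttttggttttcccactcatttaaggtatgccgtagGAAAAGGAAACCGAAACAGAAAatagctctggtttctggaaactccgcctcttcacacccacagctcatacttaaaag
Saa3 (chr7:46715677-46715926, minus strand): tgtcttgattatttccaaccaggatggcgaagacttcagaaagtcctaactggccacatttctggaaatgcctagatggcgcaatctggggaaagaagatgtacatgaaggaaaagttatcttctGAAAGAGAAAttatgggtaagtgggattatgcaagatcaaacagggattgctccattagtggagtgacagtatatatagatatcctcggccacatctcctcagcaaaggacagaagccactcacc
A match is a run of letters and says nothing of whether a factor was bound.

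Of 9 CC chemokines tested 6 rose and 0 fell, with a median of 0.67. Ccl7, a monocyte attractant, had 68.2 and 81.98 FPKM in the control libraries and 306 and 274 FPKM with PRDX1, a change of 1.94 (SE 0.09, adjusted p = 5.11e-07), and Ccl6 rose from 217 and 195 to 513 and 494 FPKM. Ccl2, the main monocyte attractant, rose from 286 and 307 to 489.9 and 454 FPKM. Ccl4 (0.08) and Ccl9 (0.25) did not pass, and the 2 groups overlapped for Ccl4. Of 10 CXC chemokines 4 rose. The neutrophil attractants Cxcl1, Cxcl2 and Cxcl3 were low in all 4 libraries. Cxcl3 rose from 0.267 and 0.166 to 4.85 and 4.95 FPKM and Cxcl2 from 3.04 and 3.04 to 8.14 and 7.86 FPKM. Cxcl16, a membrane-bound chemokine, rose from 43.1 and 43.98 to 103 and 106 FPKM. Il1b, the pyrogenic cytokine, rose from near the limit of detection, with 2 and 3 reads and 36 and 65 reads in the control and PRDX1 libraries, and its antagonist Il1rn rose from 9.12 and 9.99 to 32.1 and 30.9 FPKM, and Il18bp, which neutralises interleukin 18, from 2.19 and 2.67 to 7.90 and 8.15 FPKM. Tnf rose from 22.6 and 22.1 to 41.7 and 38.3 FPKM. Of 9 inflammasome genes 0 passed in either direction by limma (2 higher and 2 lower at an unadjusted p under 0.05, 0 by voom).

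Among chemokine receptors Ccr1 rose from 29.99 and 23.98 to 65.3 and 63.7 FPKM and Ccr3 from 1.09 and 1.13 to 6.67 and 7.57 FPKM. Cx3cr1, the fractalkine receptor of resident macrophages and of osteoclast precursors, fell from 99.6 and 95.2 to 46.5 and 52.8 FPKM. Of the 9 tested 4 were called higher and Cx3cr1 alone was called lower. The formyl peptide receptors Fpr1 (2.08) and Fpr2 (1.34), which sense bacterial peptides, rose.

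In the NF-κB system the genes that passed were listed as inhibitors or regulators, not as subunits. Of 12 inhibitors and regulators 5 rose, Nfkbia, Bcl3, Tnfaip3, Tnip1 and Zc3h12a, while of the 5 subunits 0 passed in either direction by limma (2 higher and 0 lower at an unadjusted p under 0.05, 0 by voom). Nfkbia, which encodes the inhibitor IκBα and is itself switched on by NF-κB, had 27.96 and 24.7 FPKM in the control libraries and 56.95 and 58.2 FPKM with PRDX1, a change of 1.10 (SE 0.06, adjusted p = 8.56e-07). Tnfaip3, the deubiquitinase A20, rose from 2.14 and 1.99 to 4.85 and 5.23 FPKM, and Zc3h12a, an RNase that degrades cytokine mRNA, from 3.29 and 4.04 to 8.10 and 7.55 FPKM. Upstream, of 10 Toll-like receptors 1 fell, the flagellin receptor Tlr5 (-0.99, from 2.33 and 2.33 to 0.649 and 0.710 FPKM), and 0 rose. The median of the 10 was -0.08, beside -0.04 for all genes tested. Tlr4 had 24.4 and 23.2 FPKM in the control libraries and 21.2 and 22.1 FPKM with PRDX1, a change of -0.13 (adjusted p = 0.25). Its partners Cd14 and Ly96 were at -0.19 and 0.44, and neither passed the thresholds. Without replicate 1 of the control group Ly96 was at 0.62. Of 20 adaptors and kinases of the pathway 0 passed in either direction by limma (3 higher and 3 lower at an unadjusted p under 0.05, 0 by voom), with a median of 0.02.

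The NF-κB consensus, searched on both strands, stood in 18.3% of the promoters of genes that rose, 10.1% of those of genes that fell and 12.02% of those of all genes tested (9.55% of all promoters given). By list it stood in 10 of 14 promoters of NF-κB subunits and inhibitors, 0 of 12 of the acute phase and granule genes and 4 of 19 of the cholesterol genes. The window ends short of the site, farther upstream of Saa3, where the study reported p65 binding. The 0 says nothing of that site. The promoters of Cxcl2 and Nfkbia are shown because each holds it within the 100 bases before the start, and that of B2m because it holds both motifs close together. Capitals mark matches to the NF-κB consensus, and in B2m first the interferon motif and then the NF-κB motif.
Cxcl2 (chr5:90903649-90903898, plus strand): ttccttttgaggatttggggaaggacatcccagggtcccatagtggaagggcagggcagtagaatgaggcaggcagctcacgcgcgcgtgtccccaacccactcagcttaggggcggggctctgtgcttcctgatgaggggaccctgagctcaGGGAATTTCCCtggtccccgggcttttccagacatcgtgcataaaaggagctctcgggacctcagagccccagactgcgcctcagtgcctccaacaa
Nfkbia (chr12:55492648-55492897, minus strand): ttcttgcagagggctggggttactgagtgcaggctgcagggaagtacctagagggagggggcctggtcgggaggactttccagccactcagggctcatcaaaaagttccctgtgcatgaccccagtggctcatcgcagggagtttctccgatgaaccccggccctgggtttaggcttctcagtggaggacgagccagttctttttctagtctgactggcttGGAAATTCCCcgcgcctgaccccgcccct
B2m (chr2:122147437-122147686, plus strand): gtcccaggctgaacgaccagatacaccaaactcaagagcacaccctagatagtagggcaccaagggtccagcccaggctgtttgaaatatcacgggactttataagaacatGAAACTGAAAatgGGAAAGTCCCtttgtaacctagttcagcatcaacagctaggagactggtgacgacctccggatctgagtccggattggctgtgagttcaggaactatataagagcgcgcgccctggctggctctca
In Cxcl2 a match on each strand overlaps the other by all but 1 base. Its nearest GENCODE transcript start is at -26 from the RefSeq start, so the window printed ends after it.

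Of 14 acute phase and granule genes tested 9 rose and 0 fell, with a median of 0.70. Lcn2, lipocalin 2, which binds bacterial siderophores, rose from 0.639 and 0.113 to 2.49 and 2.41 FPKM. S100a8 and S100a9, the 2 chains of calprotectin, rose from 5.15 and 3.15 to 17.3 and 17.1 FPKM and from 5.07 and 3.55 to 21.5 and 17.5 FPKM. These 2 and Elane, Mpo and Csf3r are also the neutrophil markers that moved, and the controls of several differed by more than 1.5 times, Saa3 among them (from 3.99 and 2.33 to 60.8 and 69.9 FPKM). In the complement list 5 of 16 rose and 1 fell. C3, the central component, rose from 1.26 and 1.24 to 4.91 and 5.06 FPKM, and Itgax, a chain of a complement receptor, from 5.27 and 5.45 to 13.6 and 14.2 FPKM. The classical pathway genes C1qa, C1qb and C1qc, each above 250 FPKM in every library, were at 0.04, -0.28 and -0.07, and none passed the thresholds.

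Arginine and itaconate metabolism carried the highest median of the metabolic lists, 1.13, with 5 of 9 genes higher and 0 lower. Besides Acod1, which makes itaconate, they included Ass1, which rebuilds arginine from citrulline (from 11.4 and 12.2 to 34.3 and 33.5 FPKM), and the arginine transporter Slc7a2 (from 0.924 and 0.764 to 4.01 and 3.92 FPKM). Of 22 antioxidant and glutathione genes 5 rose. Slc7a11, the cystine importer that feeds glutathione synthesis, rose from 0.832 and 0.875 to 5.92 and 5.48 FPKM, and Hmox1, heme oxygenase 1, from 229 and 224 to 421 and 422 FPKM. Prdx1 itself, the endogenous mRNA, had 1294 and 1221 FPKM in the control libraries and 1779 and 1769.7 FPKM with PRDX1, a change of 0.50 (adjusted p = 7.04e-05) that stayed under the fold threshold. None of the 16 peroxiredoxin and thioredoxin genes passed in either direction by limma (5 higher and 6 lower at an unadjusted p under 0.05, 0 by voom). In the list of serine synthesis and ATF4 targets 7 of 22 rose, among them the stress factors Ddit3 (from 15.3 and 16.3 to 39.9 and 37.2 FPKM) and Trib3 (from 2.84 and 3.35 to 9.20 and 9.90 FPKM), while Atf4 mRNA had a change of 0.09.

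Of 27 AP-1 and immediate early genes tested 11 rose and 0 fell. The largest changes were those of the 3 inhibitors of DNA binding, which block basic helix-loop-helix factors. Id1 had 21.6 and 23.6 FPKM in the control libraries and 106 and 110.3 FPKM with PRDX1, a change of 2.21 (SE 0.06, adjusted p = 1.99e-08), Id2 rose from 52.7 and 58.6 to 215 and 193 FPKM and Id3 from 38.8 and 39.9 to 133 and 138 FPKM. Junb (1.20), Atf3 (0.91), Egr2 (1.10) and Klf4 (0.76) rose less. Dusp1, a phosphatase that switches off MAP kinases, rose from 8.23 and 10.3 to 26.7 and 24.1 FPKM.

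Of 13 metalloproteinases and inhibitors 6 rose and 0 fell. Mmp12, the macrophage elastase, had 70.7 and 70.9 FPKM in the control libraries and 298 and 287 FPKM with PRDX1, a change of 2.03 (SE 0.08, adjusted p = 9.4e-08), and Mmp13, a collagenase, rose from 3.06 and 3.08 to 23.3 and 18.7 FPKM. Among 14 cathepsins 3 rose, Ctsl (from 558 and 543 to 1529 and 1472 FPKM), Ctss (from 804 and 768 to 1691 and 1694 FPKM) and Ctsh (0.73). Ctsb and Ctsd, more abundant still, changed by 0.52 and 0.51, under the threshold. By group means Ctsl was 2.73 and Ctss 2.15 times its control.

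**Figure D3:**
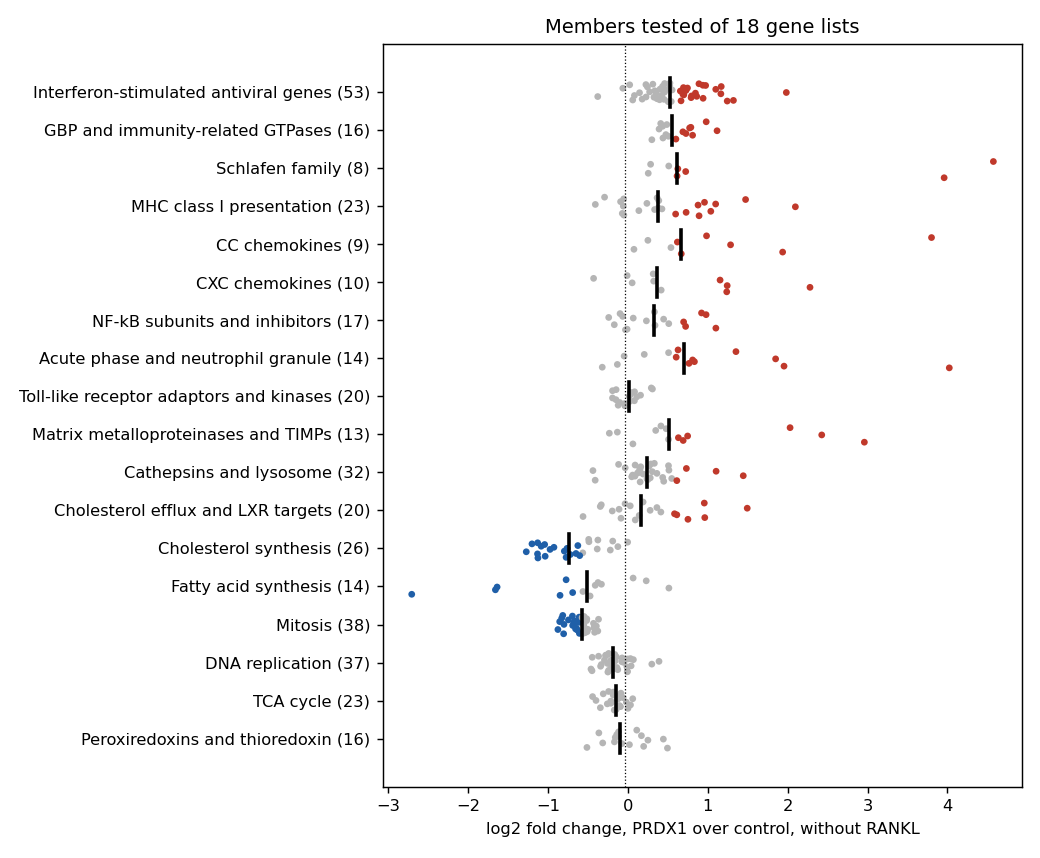
Log2 fold change, PRDX1 over control without RANKL, of the members tested (number in brackets) in 18 gene lists, red for genes called higher, blue for lower and grey for neither, with a bar at each list's median and a dotted line at the median of all genes, -0.04. The medians of the interferon, chemokine and class I lists lie to the right of it, while the cholesterol synthesis and mitosis lists lie wholly to the left of 0.

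Of 27 scavenger and lectin receptors 9 rose and 3 fell. Beside Marco, the β-glucan receptor Clec7a rose from 21.5 and 21.6 to 49.95 and 48.2 FPKM, Clec4n, which binds fungal mannan, from 45.2 and 36.2 to 90.2 and 91.8 FPKM, and Lgals3, galectin-3, from 604 and 607 to 1111 and 1069 FPKM. The 3 that fell were Mrc1, the mannose receptor, from 248 and 216 to 104 and 109.5 FPKM (log2 fold change -1.11, SE 0.08, adjusted p = 1.06e-05), Cd163, the hemoglobin scavenger receptor, from 5.69 and 5.604 to 1.55 and 1.60 FPKM, and Stab1 from 168 and 170.4 to 97.9 and 107 FPKM. Among other large decreases, Slco2b1, an organic anion transporter, on chr7:99657804-99711340 (mm10, minus strand), had 18.1 and 17.2 FPKM in the control libraries and 1.82 and 1.73 FPKM with PRDX1, a change of -2.75 (SE 0.09, adjusted p = 5.32e-08), and its mean with PRDX1 was 0.101 times the control mean. F13a1, the transglutaminase that cross-links fibrin, fell from 43.4 and 32.7 to 10.99 and 10.8 FPKM, P2ry12, an ADP receptor, from 19.4 and 18.7 to 6.70 and 6.94 FPKM, Gpr34, a lysophosphatidylserine receptor, from 4.60 and 3.81 to 0.944 and 0.987 FPKM, and Il1rl1, the interleukin 33 receptor, from 4.04 and 3.55 to 0.561 and 0.852 FPKM. Lsp1, an actin-binding protein of leukocytes, fell from 129 and 125 to 45.8 and 45.8 FPKM, and Cd81, a tetraspanin, from 177 and 170.2 to 81.8 and 82.1 FPKM. In each of them the lower control library lay well above the higher PRDX1 library, though no gene called lower had overlapping groups. Among Ms4a genes, tetraspan membrane proteins of myeloid cells, 3 of 7 rose, Ms4a4c from 14.1 and 17.1 to 81.5 and 80.9 FPKM and Ms4a7 from 67.5 and 60.54 to 231 and 242 FPKM, with Ms4a6d (0.84).

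The genes of sterol synthesis are switched on together by SREBP2 when membrane cholesterol is low. All 26 cholesterol synthesis, uptake and regulator genes tested had a change below 0, with a median of -0.74, and 17 of them fell and 0 rose. Fdps, which makes farnesyl diphosphate, fell from 94.6 and 98.7 to 40.02 and 38.9 FPKM, a log2 fold change of -1.27 (SE 0.06, adjusted p = 3.81e-07). Hmgcs1, at the entry to the pathway, fell from 52.6 and 53.8 to 24.8 and 24.3 FPKM. Further down, Sqle, squalene epoxidase, fell from 46.7 and 50.3 to 24.7 and 25.5 FPKM, and Cyp51 from 29.3 and 31.01 to 13.6 and 12.9 FPKM. Insig1, a sterol-sensing brake on SREBP that is also its target, fell from 38.2 and 35.9 to 15.98 and 16.8 FPKM. Srebf2 itself had 44.1 and 45.2 FPKM in the control libraries and 29.7 and 33.5 FPKM with PRDX1, a change of -0.49 that stayed under the threshold.

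Of 14 fatty acid synthesis genes 6 fell and 0 rose, with a median of -0.52. The desaturases changed most. Scd2 (NM_009128), on chr19:44293676-44306862 (mm10, plus strand), had 49.00 and 60.1 FPKM in the control libraries and 7.41 and 7.57 FPKM with PRDX1, a change of -2.70 (SE 0.09, adjusted p = 5.03e-08), Scd1 fell from 3.05 and 3.71 to 0.449 and 0.364 FPKM and Fads2 from 31.2 and 35.4 to 10.3 and 9.46 FPKM. Fasn, fatty acid synthase, fell from 12.2 and 14.1 to 6.81 and 7.79 FPKM. Against this, 6 of 20 genes of cholesterol efflux and of liver X receptor targets rose and 0 fell. Nr1h3, which encodes the receptor LXRα, rose from 2.37 and 1.58 to 7.52 and 7.12 FPKM, Plin2, the lipid droplet coat, from 194 and 194 to 373 and 383 FPKM, Ch25h, which makes 25-hydroxycholesterol, from 26.1 and 29.4 to 48.01 and 46.7 FPKM, and Pltp from 40.5 and 42.8 to 79.4 and 85.03 FPKM. The transporters Abca1 and Abcg1 were at -0.08 and -0.34, and neither passed the thresholds. Apoe, among the most abundant genes, had a change of 0.59, and the call was lost under quantile normalization, at 0.28, and without replicate 2 of either group, at 0.53 and 0.52.

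**Figure D4:**
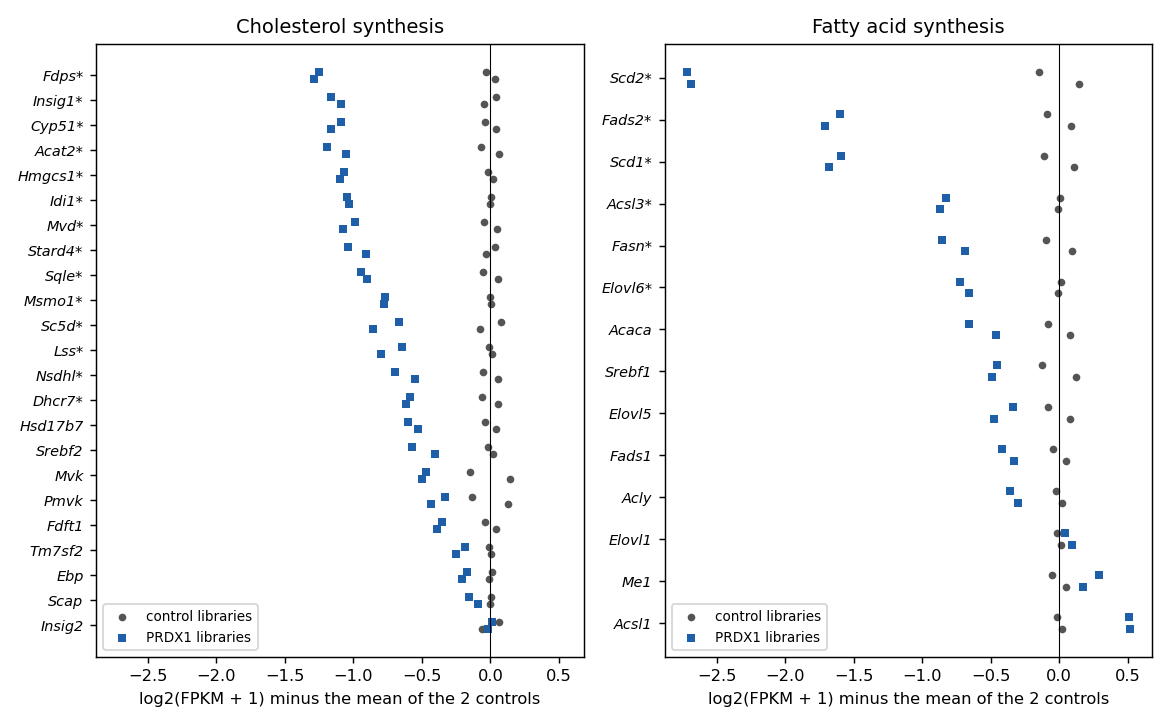
For 23 of the cholesterol genes and the 14 fatty acid genes tested, log2(FPKM + 1) in each library minus the mean of the 2 controls, grey circles for controls and blue squares for PRDX1, with an asterisk at genes past the thresholds. The 14 cholesterol genes past the thresholds in the plot run from -1.27 for Fdps to -0.60 for Dhcr7, and Scd2, Fads2 and Scd1 lie farthest from theirs.

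The sterol regulatory element, sought as TCACNCCAC on both strands, was rare in these windows. It stood in 1 of 19 promoters of the cholesterol list, in 2.23% of those of genes that fell, 1.86% of those of genes that rose and 1.35% of those of all genes tested (1.44% of all promoters given). Outside that list it also stood in 1 of 12 promoters of acute phase and granule genes, that of Saa3, where it is not marked above. The only member of the cholesterol list that held it was Hmgcs1, whose promoter is shown with the match in capitals. The RefSeq start used for this window lies 28 bases upstream of the nearest GENCODE transcript start of the gene, on the same strand.
Hmgcs1 (chr13:119690101-119690350, plus strand): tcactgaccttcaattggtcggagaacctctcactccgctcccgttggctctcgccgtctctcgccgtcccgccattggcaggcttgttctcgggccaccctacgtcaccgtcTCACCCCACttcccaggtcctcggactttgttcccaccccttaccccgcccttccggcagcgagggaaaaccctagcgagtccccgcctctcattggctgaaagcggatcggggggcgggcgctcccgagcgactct
The serum response element, by its CArG consensus, stood in 1.55% of the promoters of genes that rose, 2.23% of those of genes that fell and 1.53% of those of all genes tested (1.81% of all promoters given).

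All 38 mitosis genes tested had a change below 0, with a median of -0.57, and 18 fell and 0 rose, 15 of them among the 25 spindle and chromosome genes. Ccnb2, a mitotic cyclin, had 67.1 and 68.4 FPKM in the control libraries and 35.3 and 37.8 FPKM with PRDX1, a change of -0.87 (SE 0.06, adjusted p = 4.64e-06). Mki67, the proliferation antigen, fell from 102 and 91.1 to 50.6 and 55.4 FPKM, Kif23, a kinesin of cytokinesis, from 46.95 and 48.7 to 25.6 and 27.5 FPKM, and Cenpf, of the kinetochore, from 11.97 and 11.01 to 5.82 and 6.40 FPKM. Cdk1 (-0.55), Plk1 (-0.55) and Aurkb (-0.51) were below 0 and stayed under the threshold. Of 37 replication genes 0 passed in either direction by limma, with a median of -0.18 and 32 below 0 (2 higher and 22 lower at an unadjusted p under 0.05, 1 lower by voom). Pcna, the sliding clamp, had 345 and 348 FPKM in the control libraries and 367 and 361 FPKM with PRDX1. Cdkn2a, which encodes the cell cycle inhibitors p16 and p19ARF, fell from 5.26 and 4.40 to 1.31 and 1.72 FPKM, and Ccnd1, the M-CSF-responsive cyclin, had a change of -0.48. The difference between the 2 lists was not tested.

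The cell cycle genes homology region, sought as TTTGAA on both strands and added after the values were seen, stood in 23 of 31 promoters of the mitosis list and in 28.5% of those of genes that fell, against 17.4% of those of genes that rose and 14.5% of those of all genes tested (20.2% of all promoters given). It also stood in 5 of 10 promoters of the GTPase list and 13 of 41 of the interferon-stimulated antiviral genes, lists with members that rose and 0 that fell. Within the 150 bases before the start, 11 of the 31 mitosis promoters held it, 3 of 10 of the GTPase list and 8 of 41 of the antiviral genes. The promoter of Cdc20, the activator of the anaphase complex, which fell from 47.02 and 48.8 to 31.8 and 30.4 FPKM, is shown with its match in capitals. Its nearest GENCODE transcript start is at -9 from the RefSeq start.
Cdc20 (chr4:118437344-118437593, minus strand): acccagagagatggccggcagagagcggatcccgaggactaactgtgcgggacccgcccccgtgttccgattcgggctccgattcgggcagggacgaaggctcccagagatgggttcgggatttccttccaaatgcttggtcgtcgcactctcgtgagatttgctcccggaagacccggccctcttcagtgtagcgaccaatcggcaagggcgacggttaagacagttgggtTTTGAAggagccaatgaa

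Of 17 genes of eicosanoid enzymes and receptors 4 rose and 4 fell. Hpgd, which inactivates prostaglandins, had 47.2 and 48.7 FPKM in the control libraries and 10.9 and 11.3 FPKM with PRDX1, a change of -2.02 (SE 0.08, adjusted p = 1.12e-07). Alox5, the 5-lipoxygenase of leukotriene synthesis, fell from 10.7 and 9.31 to 4.21 and 3.18 FPKM, and Ptgs1, cyclooxygenase 1, from 18.5 and 16.01 to 9.85 and 10.4 FPKM. The prostaglandin E2 receptors Ptger2 and Ptger4 rose, from 3.52 and 3.12 to 7.33 and 7.07 FPKM and from 3.07 and 3.33 to 6.93 and 7.54 FPKM. In the list of cell death genes 3 of 10 survival genes rose, all of the Bcl2a1 family, Bcl2a1b from 16.9 and 17.9 to 78.4 and 80.05 FPKM with its near copies Bcl2a1a and Bcl2a1d, between which reads may be shared. Of 16 death genes 2 fell, Bid (-0.73) and Bik (-0.99), and the median of the 16 was -0.06. Of all genes tested 1.99% fell. Of 23 TCA cycle genes 0 passed in either direction by limma (0 higher and 12 lower at an unadjusted p under 0.05, 0 by voom). Of 29 glycolysis and glucose genes 2 fell, Slc2a6 (-0.75) and Pdk1 (-0.65), and the median of the 29 was -0.08.

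Of 16 osteoclast effector genes tested 4 rose and 1 fell, and 7 rose with a pseudocount of 0.1 and with voom on recovered reads. Atp6v0d2, a proton pump subunit needed for fusion, had 6.96 and 7.02 FPKM in the control libraries and 24.5 and 20.97 FPKM with PRDX1, a change of 1.57 (SE 0.08, adjusted p = 6.31e-07). Acp5, the tartrate-resistant phosphatase, rose from 24.2 and 23.1 to 53.9 and 53.5 FPKM, and Src, the kinase of the sealing zone, from 0.698 and 0.798 to 4.13 and 4.19 FPKM. Itgb3, the β3 integrin chain, fell from 1.80 and 1.95 to 0.714 and 0.610 FPKM. With RANKL present the same list had 0 genes higher and 13 lower by PRDX1, and the difference between the 2 effects passed for 15 of the 16.

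Compared with the response in the RANKL cultures, which share no library with the cultures described here, the increases recurred more often than the decreases. With RANKL, PRDX1 raised 705 genes (6.03% of those tested) and lowered 488 (4.17%). Of the 445 genes that rose without RANKL, 280 (62.9%) also rose with it, which is 39.7% of the 705, and 16 fell. Of the 233 that fell, 37 (15.9%) also fell with it, which is 7.58% of the 488, and 9 rose. A difference between the 2 effects passed the thresholds for 8.85% of all genes tested. It passed for 130 of the genes that rose and 102 of those that fell. These genes were chosen by their effect without RANKL, which is part of the difference, so their counts cannot be compared with that share. With RANKL Slfn4 was at 4.41 and Slfn1 at 3.94, and for 0 of the 8 Schlafen genes did the difference pass. Of the 53 interferon-stimulated genes 40 rose with RANKL and 3 had a difference. By contrast Mmp14 was -1.09 with RANKL, a difference of -4.05 (adjusted p = 4.42e-08), and Cav1 was -0.21, a difference of -2.51 (adjusted p = 1.59e-07). Of the 26 cholesterol genes 0 passed with RANKL, with a median of -0.11, and the difference passed for 15. Mrc1 and Stab1, lower without RANKL, were 0.84 and 1.38 with it. For Nfkbia the effect was -0.32 with RANKL, a difference of -1.42 (adjusted p = 2.81e-06).

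**Figure D5:**
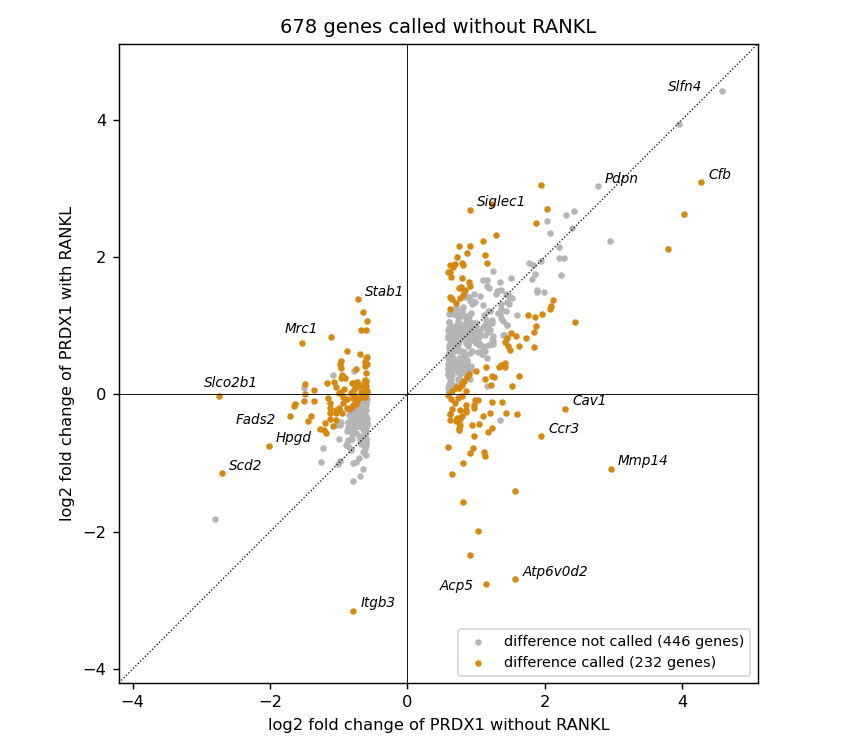
Each point is 1 of the 678 genes called without RANKL, with its log2 fold change by PRDX1 without RANKL on the x axis and with RANKL on the y axis, orange where the difference between the 2 passed the thresholds (232 genes) and grey where it did not (446 genes), and a dotted line of equal change. Slfn4 and Pdpn lie near the line, while Mmp14, Atp6v0d2, Acp5 and Slco2b1 lie far from it.

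Among the 678 genes were 29 small RNA genes, 16 higher and 13 lower, and 28 of them lie within or across another gene of the table. Reads were counted without regard to strand, so these values can be reads of the host gene. Mir5114, nominally the largest decrease at -2.79, lies within Scd2 (-2.70), whereas Mir7029 (-1.54) lies within Gcn1 (-0.14). Their values are uncertain.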

How the data were processed

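RNA of 8 cultures, 2 in each of 4 groups of PRDX1 and RANKL, was sequenced as paired reads. According to the submitters' notes and the file header, the authors used HISAT2, HOMER and DESeq2 with mouse build mm10, counted reads on RefSeq exons irrespective of strand, and deposited them as FPKM, which divides by transcript length and library total. These FPKM were whole multiples (within 0.1) of 1 read in 99.7% to 100% of the values checked per library, so that reads were recovered. The table held 0 columns of other samples.

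Groups came from the labels. The 11700 genes whose mean reached 0.5 FPKM entered a single limma fit (3.58.1, R 4.3.3) of all 4 groups on log2(FPKM + 1), with a trend on intensity, leaving 4 residual degrees of freedom. A gene was called at a Benjamini-Hochberg adjusted p under 0.05 over all genes and a fold change of at least 1.5. An exact permutation of 2 against 2 libraries cannot reach that p. Of 966 members of 53 gene lists written by hand, 965 were in the table. Members and lists were chosen with earlier results of these data known. Most genes named were taken from those a rule gave, not all of which are printed: the 20 largest increases and 20 largest decreases whose groups did not overlap, up to 6 called and 4 uncalled members of each list, genes the study names, and cell markers, and others were chosen after their values were seen. Some members are counted in their lists and not reported here by name. Replicate pairs differed beyond sampling noise (chi-square per degree of freedom 4.71 to 9.58). Depth sets the floor of 3 reads at 0.0650 to 0.110 FPKM for a transcript of 1000 bases, which covers counting error only. On simulated counts for this comparison, run on 11799 genes, 31.3% of genes changed 1.5-fold, 88.1% changed 2-fold, 100% changed 4-fold and 0.0862% of unchanged genes were called. The simulation gave every gene the same dispersion, so these shares hold for that setting and not for the unequal spread of the real genes. Promoters are RefSeq, GRCm38.p6, and a gene holds a motif if any of its promoters does. Alternatives were another pseudocount, filters, scalings, trend, fold threshold, model samples, a replicate block, voom on recovered reads, each library left out, and a shorter promoter window.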

Additional observations from a re-analysis of the deposited data

Results flagged for a closer look

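The genes below were singled out because the effect of PRDX1 differed between the cultures with and without RANKL, by the interaction term of the limma fit at a Benjamini-Hochberg adjusted p under 0.05 and 1.5-fold or more, which 8.85% of all genes tested passed. Each value is the log2 effect with RANKL minus that without. The interaction rests on 2 libraries in each of 4 groups. The effect without RANKL, by which the genes that rose or fell were chosen, is part of it.

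Among genes that rose without RANKL, the osteoclast genes had differences of -3.91 for Acp5, -4.26 for Atp6v0d2 and -2.97 for Src. Those of proteases, membrane coat and growth factor receptors were -4.05 for Mmp14, -2.51 for Cav1, -1.90 for Met, -1.73 for Fgfr1 and -1.71 for Igf2r. For chemokines, their receptors and cytokine antagonists they were negative at -1.69 for Ccl5, -1.73 for Ccr1, -2.55 for Ccr3 and -0.92 for Il1rn, and positive at 1.18 for Ccl2, 1.03 for Ccl6, 1.12 for Ccl7 and 0.75 for Cxcl2. The inhibitors and regulators of NF-κB had differences of -1.42 for Nfkbia, -1.11 for Bcl3, -1.06 for Tnfaip3 and -0.83 for Tnip1. The factors of transcription had -1.47 for Junb, -0.72 for Id2, -0.59 for Id3, 1.25 for Atf3 and 0.80 for Stat2. Acute phase, complement and granule genes had -1.39 for Saa3, -1.19 for Cfb, -0.95 for S100a8 and -0.78 for S100a9. For the remaining genes of immunity and survival the values were -1.17 for Cd274, -0.81 for H2-Q7, -0.75 for Bcl2a1b, 0.67 for Ms4a6d and 0.62 for Ms4a7. Lipid genes that rose had -0.84 for Nr1h3, -1.17 for Pltp, -0.93 for Fabp5, -1.38 for Fabp7, 1.20 for Apoe and 1.40 for Ch25h, and the TGF-β pathway genes -0.97 for Pmepa1, -0.65 for Skil and -0.62 for Smad6. The enzymes of heme and histidine breakdown had 0.74 for Hmox1 and 0.65 for Hal.

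Among genes that fell without RANKL, the sterol genes had differences of 0.77 for Fdps, 0.62 for Hmgcs1, 0.995 for Cyp51, 0.79 for Dhcr7, 1.003 for Sqle and 0.93 for Insig1, and the fatty acid genes 1.55 for Scd2, 1.495 for Scd1, 1.49 for Fads2 and 0.74 for Fasn. Surface receptors and transporters had 2.72 for Slco2b1, 2.11 for Stab1, 1.95 for Mrc1, 1.42 for Cd163, 1.34 for Cx3cr1, 1.26 for P2ry12, 1.08 for Gpr34, 1.504 for Il1rl1, 1.25 for Cd81 and 1.11 for Slc2a6. Other values were 1.38 for F13a1, 1.07 for Lsp1, 1.27 for Hpgd, 0.67 for Bid, 0.79 for Bik, 0.70 for Cdkn2a and 2.29 for Mir7029. For the integrin chain that was lower in both settings the value was -2.36 for Itgb3.

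Genes that did not pass without RANKL had differences of 1.69 for C1qa, 1.97 for C1qb, 1.65 for C1qc, 2.28 for Pf4, 2.04 for Ccl4, 1.33 for Cd14, 1.08 for Abca1, 0.86 for Ctsb, 0.67 for Ccnd1 and -0.74 for Ccl9.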

How the results depend on the processing

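With 445 genes higher, 233 lower and 1036 differing between the effects without and with RANKL in the fit reported, a fold threshold of 2 gave 149, 38 and 335 and no fold threshold 1425, 2059 and 2707. The lower genes numbered 360 with a pseudocount of 0.1 and 396 with voom on recovered reads, whose higher genes numbered 604 and 608. Leaving out 1 library at a time, the counts ranged from 437 to 481 higher, from 238 to 266 lower and from 983 to 1094 differing. Filters, scalings, trend and model samples gave counts within 1.5 times of these. Of 689 counts of list members under the alternatives, 679 stayed within 1.5 times. Of the 205 tested genes named here, 175 of them called, no called gene turned its direction under these alternatives. With 1 library left out 17 lost their call, the log2 fold changes being without replicate 1 of the control group 0.58 for Bst2, 0.58 for Smad7, 0.54 for Tgtp1, 0.52 for Sparc, 0.48 for Col1a1, 0.46 for Socs1, 0.46 for Stat2, -0.57 for Pdk1, -0.89 for Snord58b and -1.41 for Mir6983. Without replicate 2 of the control group they were 0.54 for Elane, 0.53 for Apoe, -0.54 for Dhcr7 and -0.58 for Cdc20. Without replicate 1 of the PRDX1 group they were 0.53 for Siglech, -0.57 for Uggt1 and -1.05 for Mir6983, and without its replicate 2 they were 0.64 for Elane, 0.60 for Col1a1, 0.52 for Apoe, -0.55 for Hmgb3, -0.58 for Cdc20 and -1.07 for Snord58b. Under quantile or upper quartile scaling the calls of Apoe, Cdc20, Dhcr7, Herpud1, Hmgb3, Mpo and Uggt1 were lost in at least 1 of the 2. With no filter on FPKM those of Col1a1, Elane, Mir6983 and Snord58b were lost, and by voom that of Snord58b. Ifih1 gained a call at 0.59 with a pseudocount of 0.1, with upper quartile scaling and by voom. Without replicate 2 of the control group it was also at 0.59. Without replicate 1 of the control group Ly96 was at 0.62 and Plk1 at -0.61.

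The replicate numbers did not pair the libraries: the deviations of same-numbered libraries correlated at 0.00847 to 0.0965, and the numbers kept in the file header differ from those of the labels. A replicate block gave 444 genes higher, 232 lower and 1042 differing and changed no call among those 205 genes. Within the 150 bases before the start, the interferon motif stood in 10.2% of the promoters of genes that rose (1.97% of all tested), the NF-κB consensus in 12.7% (7.03%), the serum response element in 0.621% and, for genes that fell, 0.00% (0.852%), and the cell cycle region in 8.70% and 15.6% of those of genes that rose and fell (6.53%). The sterol element stood there in 1.24% and 1.68% of those of genes that rose and fell (0.797%). With 2 libraries a group, the replicate number of cultures limits the test, and weakly expressed genes such as Il1b rest on few reads.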

Other observations

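The genes given here stand outside the lists and were picked after their values were seen, so they say nothing of the families they belong to. Single genes known as feedback inhibitors or targets of TGF-β and BMP signalling were among those that rose: Smad6 from 1.29 and 1.29 to 5.40 and 5.62 FPKM, Smad7 from 0.891 and 1.33 to 2.59 and 2.38 FPKM, Pmepa1 from 0.769 and 0.767 to 3.63 and 3.82 FPKM, Skil from 10.9 and 11.7 to 31.98 and 31.6 FPKM and Tgif1 from 22.8 and 23.9 to 43.6 and 42.3 FPKM. So were 4 genes of fatty acid-binding proteins, Fabp7 from 20.6 and 19.3 to 119 and 107 FPKM, Fabp5 from 137 and 147 to 385 and 348 FPKM, Fabp4 from 7.95 and 6.31 to 17.7 and 17.3 FPKM and Fabp3 from 4.06 and 4.93 to 7.95 and 9.12 FPKM. Among genes of Ly6 surface proteins, Ly6c2 rose from 28.2 and 23.96 to 72.2 and 76.6 FPKM, Ly6c1 from 34.2 and 26.5 to 77.8 and 80.6 FPKM and Ly6a from 104 and 88.97 to 198 and 203 FPKM, and the first pair are near copies.

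Met, the receptor of hepatocyte growth factor, rose from 0.958 and 0.892 to 5.02 and 4.67 FPKM, Hgf, its ligand, from 1.58 and 1.78 to 3.28 and 4.29 FPKM, Fgfr1 from 0.378 and 0.348 to 1.72 and 1.55 FPKM and Igf2r from 1.42 and 1.67 to 5.72 and 6.06 FPKM. Hal, which opens histidine breakdown, rose from 15.9 and 15.5 to 68.6 and 66.3 FPKM, and Gpnmb, a glycoprotein of lipid-laden macrophages, from 526 and 547 to 1387 and 1363 FPKM. Genes of endoplasmic reticulum proteins were among those that fell, Sdf2l1 from 153 and 165 to 98.2 and 103 FPKM, Herpud1 from 21.9 and 22.996 to 14.1 and 14.4 FPKM and Uggt1 from 30.5 and 31.1 to 19.3 and 20.4 FPKM, as did the chromatin proteins Hmgb2 from 86.5 and 80.9 to 52.3 and 51.3 FPKM and Hmgb3 from 17.6 and 17.4 to 11.6 and 10.6 FPKM.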
